A study of Mus musculus with 18 samples.

Results

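Bile acid synthesis and transport genes were described in mouse liver RNA-seq. The 10 genes were the rows of the liver table with the symbols Cyp7a1, Cyp8b1, Cyp27a1 and Cyp7b1 (synthesis), Baat and Slc27a5 (conjugation), Slc10a1 (uptake), Abcb11 (export into bile), and Nr0b2 and Nr1h4 (nuclear receptors), out of 21441 genes in that table. They were chosen by symbol, and all 10 passed the filter for testing, a mean FPKM above 1 over the 9 liver libraries. FPKM are fragments scaled by transcript length and by a size estimated for each library. The study examined moringa isothiocyanate-1 (MIC-1), an isothiocyanate isolated from moringa seeds, in mice given lipopolysaccharide (LPS), the component of Gram-negative bacterial membranes that sets off acute inflammation. The animals were male wild type C57BL/6 mice whose ages are not given in the sources used here. Control mice received the vehicles, LPS mice the gavage vehicle and then 10 mg/kg LPS into the peritoneum, and LPS+MIC-1 mice 80 mg/kg MIC-1 by gavage for 3 days and then the same LPS. Livers were taken 16 h after the injection, 3 libraries per group. No group received MIC-1 alone, so each MIC-1 value is on top of LPS.

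Bile acids are made from cholesterol in hepatocytes. In the classical pathway CYP7A1 takes the rate-limiting step and CYP8B1 adds the hydroxyl group that makes cholic acid, whereas the alternative pathway starts with CYP27A1 and goes on through CYP7B1. SLC27A5 and BAAT join the acids to coenzyme A and then to taurine or glycine, ABCB11 (the bile salt export pump) moves them into the canaliculus and SLC10A1 (NTCP) takes them back up from portal blood. Bile acids bind the receptor FXR (gene Nr1h4), which induces the corepressor SHP (gene Nr0b2), and SHP in turn represses Cyp7a1 and Cyp8b1. Loss of hepatic transporter and CYP7A1 expression during endotoxemia is a known feature of inflammatory cholestasis.

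Column names give the treatment without a replicate number. The numbers 1 to 3 used here are only the column order within a treatment. An effective depth, the divisor of the deposited FPKM, was estimated from the steps between low FPKM values. It was 5.7 to 10.55 M reads in the control libraries, 11.45 to 17.4 M in the LPS libraries and 12.2 to 14.4 M in the LPS+MIC-1 libraries. Size factors enter this divisor, so it can differ from the reads sequenced per library. Library 1 stood apart among the controls, and library 2 in each of the other groups. The closest pair of libraries in each group (control 2 and 3, LPS 1 and 3, LPS+MIC-1 1 and 3) differed by 7.44, 10.3 and 2.46 times the variance that sampling gives. The other pairs differed by 43.3 to 123.5 times that variance, so no pair agreed within sampling noise. The study describes liver tissue from 9 mice, 3 per group. The spread alone does not show that the libraries are separate animals, and each was counted as 1 library. All 8 genes listed as markers of the response to LPS rose with LPS, and their summed FPKM was 416 to 15773 in the controls, 109062 to 156568 in the LPS libraries and 185516 to 215911 in the LPS+MIC-1 libraries. The 6 hepatocyte markers were detected in every group, with summed FPKM of 38498 to 75300, 32466 to 42143 and 32172 to 41274 in the same order, and 1 of the 6, Cps1 of the urea cycle, fell with LPS (Log2FC -1.79, limma adjusted P-value = 0.0331). Neutrophil markers (5 of 6 in the table) summed to 35.1 to 51.4, 309 to 385 and 177 to 428. Of the 4 tested, S100a8, S100a9 and Retnlg rose with LPS, whereas Cxcr2, most of the control sum, fell (-2.30, 0.0049). Of 5 tested Kupffer cell markers 2 fell and 1 rose with LPS, and of 6 of sinusoidal endothelium 3 fell and 2 rose. The part of these shifts in the results was not tested, and in bulk tissue fewer hepatocytes and less RNA per hepatocyte cannot be told apart.

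LPS against control addresses how the liver answers endotoxin. Of the 10 genes, 4 fell (Cyp7a1, Cyp8b1, Cyp27a1 and Abcb11), 1 rose (Cyp7b1) and 5 did not pass the test, an adjusted P-value below 0.05 by limma over all tested genes. Among all 10147 tested genes, 34.7% passed in either direction, 15.5% lower and 19.2% higher, beside 4 and 1 of the 10 members. Of the genes that passed 55.3% were higher, and 31.2% after each library was rescaled to 1 common FPKM sum. The median Log2FC was -1.06 over the 10 genes and 0.15 over all tested genes. Log2FC values are differences of mean log2(FPKM + 0.5), a scale that understates the change of low genes.

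**Figure D1:**
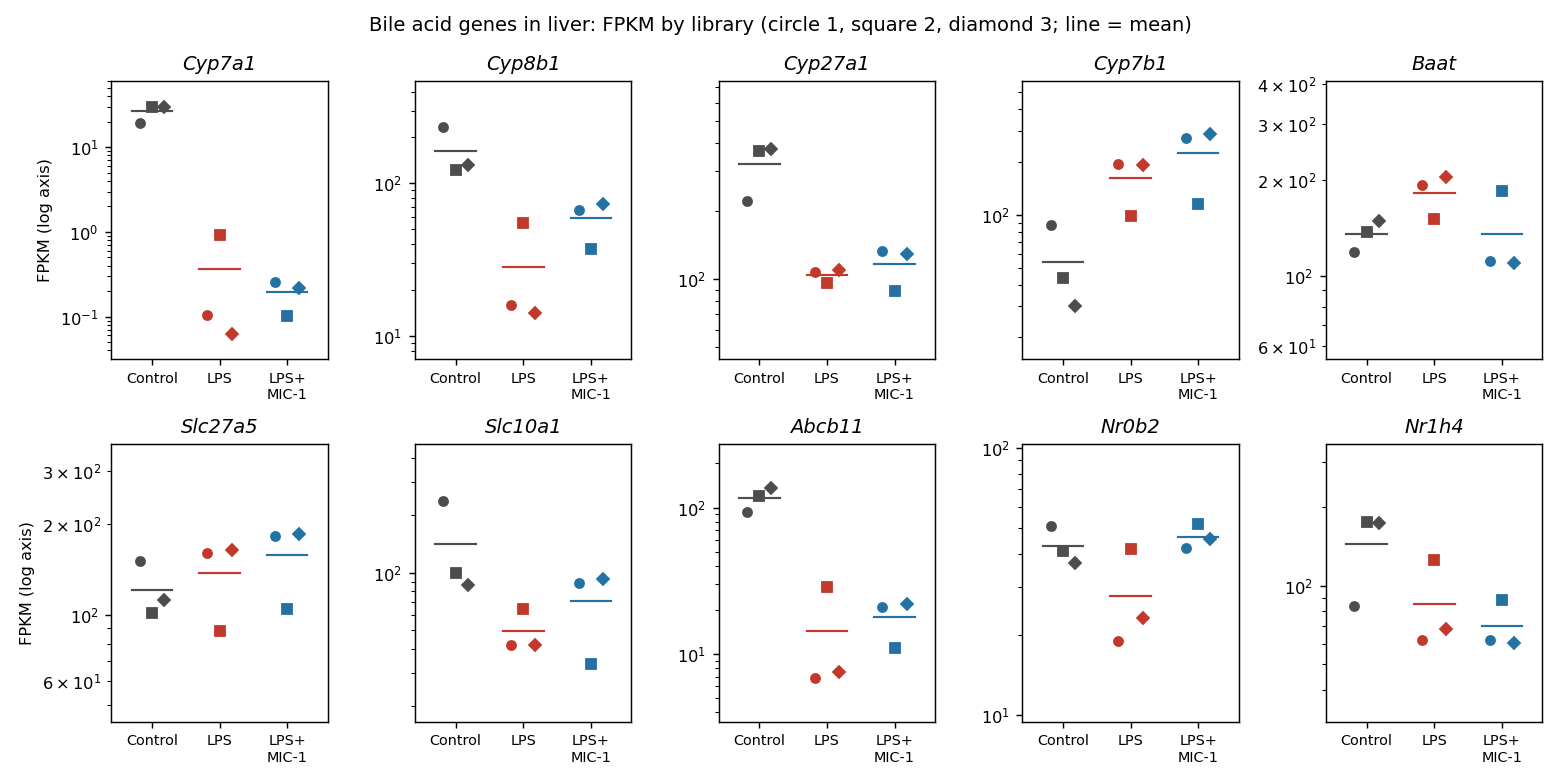
FPKM (log axis, each panel with its own range) of the 10 bile acid genes in each liver library by treatment. Circles, squares and diamonds are libraries 1, 2 and 3, and the line is the mean of 3 libraries. Cyp7a1 lay between 19.6 and 30.3 FPKM in the controls and below 1 in every library of the other 2 groups, whereas Cyp7b1 was higher in all of them than in any control.

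Cyp7a1 (chr4:6192759-6202780 in mm9, minus strand) showed the largest difference of the 10. Its FPKM was 19.6, 30.3 and 30.2 in control libraries 1 to 3, and 0.103, 0.927 and 0.0631 in the LPS libraries. The groups did not overlap, and within LPS library 2 was the highest by far. The LPS values stood on an estimated 7.15, 42.7 and 4.03 reads, against 693.6 to 819.7 in the controls, so the low group is imprecise. Mean FPKM was 73.2-fold lower with LPS (0.364 ± 0.487 against 26.7 ± 6.16; SD, n = 3), and the Log2FC was -5.08 (SE 0.37, limma adjusted P-value = 0.000246). Without LPS library 2 the mean was 320.3-fold lower and the Log2FC -5.52.

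Cyp8b1 (chr9:121823474-121825423, minus strand), the 12α-hydroxylase and a gene of 1 exon, also fell. Its FPKM was 234.6, 122.8 and 131.5 in the controls and 16.1, 55.2 and 14.1 with LPS, with no overlap and LPS library 2 again nearest to the controls. The Log2FC was -2.72 (SE 0.53, limma adjusted P-value = 0.0078), and -3.33 without LPS library 2. Cyp27a1 (chr1:74760148-74784464, plus strand), the mitochondrial sterol 27-hydroxylase, fell less and more evenly. It read 222.1, 366.2 and 373.4 FPKM in the controls and 107.9, 96.5 and 109.6 with LPS, where the 3 libraries lay close together. Its Log2FC was -1.57 (SE 0.26, limma adjusted P-value = 0.00461).

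Cyp7b1 (chr3:17971950-18143338, minus strand), the oxysterol 7α-hydroxylase, went the other way. Its FPKM was 87.9, 43.8 and 30.1 in the controls and 195.7, 98.8 and 192.2 with LPS, with LPS library 2 just above the highest control. The Log2FC was 1.66 (SE 0.50, limma adjusted P-value = 0.0336). The call was lost without control library 2 (limma adjusted P-value = 0.0954), control library 3 (0.109), LPS library 1 (0.109) or LPS library 3 (0.115), with Log2FC of 1.31 to 1.58. In the same order 1944, 1968, 1664 and 1396 of the 10147 tested genes passed, beside 3520 in the full fit. The call was also lost after rescaling to equal sums (Log2FC 1.30, adjusted P-value = 0.0511), a scaling that moved the median of all tested genes from 0.15 to -0.18. Relative to those medians Cyp7b1 stood 1.51 higher as deposited and 1.47 higher after rescaling.

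Abcb11 (chr2:69076339-69180671, minus strand), the canalicular export pump, fell most after Cyp7a1. Its FPKM was 93.0, 119.8 and 136.4 in the controls and 6.89, 28.6 and 7.58 with LPS. No LPS library reached the controls, and LPS library 2 was the highest of the 3. The Log2FC was -3.26 (SE 0.52, limma adjusted P-value = 0.00415), and -3.90 without LPS library 2. Slc10a1 (chr12:82054172-82068971, minus strand), the sinusoidal uptake carrier, read 237.5, 99.9 and 86.7 FPKM in the controls and 42.1, 65.0 and 42.2 with LPS. These groups did not overlap either, but control library 1 stood far above the other two and the difference did not pass the test (Log2FC -1.38, SE 0.49, limma adjusted P-value = 0.0579). It passed without LPS+MIC-1 library 2, which enters through the shared spread (0.0326), and after rescaling to equal sums (-1.74, 0.0157).

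The start regions of the 3 genes that fell and have an entry among the RefSeq promoters (6 of the 10 genes have one) are shown because these 3 members moved together. Each is the 250 bases before the start site in RefSeq (GRCm38.p6), found once in mm9, written 5′ to 3′ on the gene's strand with motif matches in capitals. They lie at chr9:121825424-121825673 for Cyp8b1, chr2:69180674-69180923 for Abcb11 and chr1:74759859-74760108 for Cyp27a1.
Cyp8b1: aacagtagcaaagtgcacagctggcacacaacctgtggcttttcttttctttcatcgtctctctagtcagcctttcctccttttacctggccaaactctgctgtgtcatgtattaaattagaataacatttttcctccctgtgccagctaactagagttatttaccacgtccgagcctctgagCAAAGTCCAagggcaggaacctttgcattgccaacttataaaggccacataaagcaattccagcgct
Abcb11: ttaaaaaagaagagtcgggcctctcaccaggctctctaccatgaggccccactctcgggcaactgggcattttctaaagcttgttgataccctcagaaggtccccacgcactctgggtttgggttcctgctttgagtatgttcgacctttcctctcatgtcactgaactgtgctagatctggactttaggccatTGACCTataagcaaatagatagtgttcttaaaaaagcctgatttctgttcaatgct
Cyp27a1: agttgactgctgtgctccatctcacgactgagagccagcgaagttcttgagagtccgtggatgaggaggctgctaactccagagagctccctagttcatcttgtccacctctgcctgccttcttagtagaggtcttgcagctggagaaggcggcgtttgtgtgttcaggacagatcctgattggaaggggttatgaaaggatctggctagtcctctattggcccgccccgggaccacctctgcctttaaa
On either strand 5 motifs were searched: the inverted repeat IR1 that FXR binds, CAAGGTCA (LRH-1), CAAAGTCCA (HNF4A), TTGCGCAA (C/EBP) and AGGTCA (a nuclear receptor half-site, which CAAGGTCA contains). CAAAGTCCA stands 67 to 59 bases before the start of Cyp8b1 and occurs in 0.384% of the 32851 promoter windows. AGGTCA stands on the reverse strand 56 to 51 bases before the start of Abcb11 and occurs in 14.0% of windows. None of the 5 occurs in the Cyp27a1 window. A match is a run of letters and was not tested as a binding site.

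The conjugation genes did not pass the test. Baat (chr4:49502294-49519429, minus strand) read 118.9, 137.3 and 149.1 FPKM in the controls and 192.3, 151.0 and 204.7 with LPS, all 3 above the highest control, at a Log2FC of 0.43 (95% interval -0.14 to 0.99, limma adjusted P-value = 0.199). Slc27a5 (chr7:13573695-13583541, minus strand) read 150.4, 101.0 and 112.0 FPKM in the controls and 160.3, 88.1 and 164.2 with LPS. Its groups overlapped, and the Log2FC of 0.15 (95% interval -0.60 to 0.90, limma adjusted P-value = 0.74) turned to -0.21 after rescaling to equal sums. Beside Baat and Cyp7b1, no member was higher without overlap, and 5 were lower without overlap. The background shares were 24.2% and 20.8% of tested genes, 45% in all.

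Of the receptors, Nr1h4 (chr10:88916979-88996330, minus strand) read 83.4, 175.7 and 174.7 FPKM in the controls and 61.9, 125.3 and 68.5 with LPS. Control library 1 and LPS library 2 made the groups overlap, and the Log2FC was -0.75 (95% interval -1.60 to 0.10, limma adjusted P-value = 0.142). Nr0b2 (chr4:133109291-133112451, plus strand) read 50.8, 41.2 and 37.0 FPKM in the controls and 18.9, 41.9 and 23.0 with LPS. Libraries 1 and 3 with LPS lay below all controls and library 2 among them, at a Log2FC of -0.68 (95% interval -1.34 to -0.02, limma adjusted P-value = 0.0941). Without LPS library 2 both passed, Nr0b2 at -1.02 (0.00499) and Nr1h4 at -1.07 (0.0412), where 49% of tested genes did. Nr1h4 also passed without control library 1 (-1.11, 0.0325), and Nr0b2 after rescaling to equal sums (-1.05, 0.0171, with 35.4% of tested genes called). The number of the 10 genes that passed ranged from 4 to 7 when single libraries were left out, beside 1396 to 4967 of all 10147 tested genes. With the closest pair of libraries in each group averaged, an alternative chosen after seeing the data, 1 member passed, Cyp7a1 (Log2FC -4.77, limma adjusted P-value = 0.0228), beside 1.48% of tested genes. With library weights estimated in limma all 10 passed, beside 73% of tested genes.

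**Figure D2:**
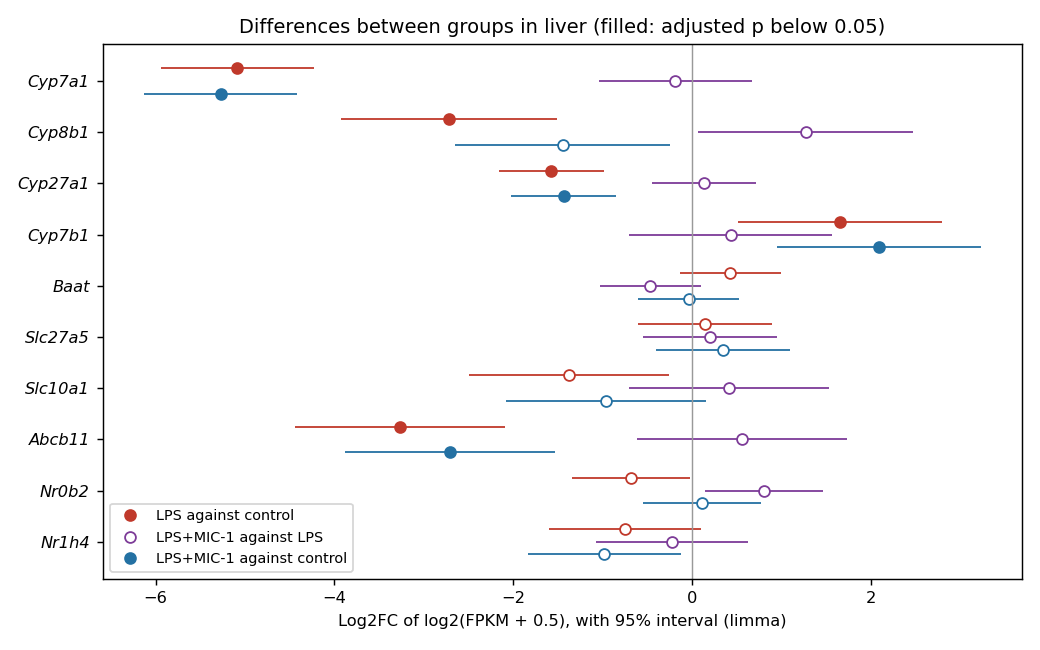
Log2FC (difference of mean log2(FPKM + 0.5)) of the 10 bile acid genes with 95% intervals from limma for the 3 liver comparisons, 3 libraries per group. Filled points passed an adjusted P-value below 0.05. Filled points stand for 5 genes in LPS against control, 0 in LPS+MIC-1 against LPS and 4 in LPS+MIC-1 against control.

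LPS+MIC-1 against LPS addresses what the pretreatment changed in LPS-injected mice. None of the 10 genes passed (each at an adjusted P-value of 0.997), and none of the 10147 tested genes did (0%, lowest limma adjusted P-value = 0.0546). Without LPS library 2, 36 genes (0.355%) passed, none of them a member. An unadjusted p below 0.05 was reached by 364 genes (3.59%), and by 2 of the 10 members, Cyp8b1 and Nr0b2, both higher with MIC-1. Nr0b2 was the only member whose groups did not overlap (without overlap, 5.1% of tested genes were higher, 4.64% lower and 9.75% in all). With library weights 30.2% of tested genes passed, and 5 members with them, Cyp8b1, Nr0b2, Slc10a1 and Abcb11 higher and Baat lower. This comparison uses the same LPS libraries as LPS against control, so a low LPS value enters both, in opposite directions.

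Nr0b2 read 42.0, 51.8 and 45.5 FPKM in LPS+MIC-1 libraries 1 to 3, each above the highest LPS library. The highest LPS value, 41.9 in library 2, lay just under the lowest of them. The Log2FC was 0.80 (95% interval 0.14 to 1.46). Cyp8b1 read 67.2, 37.4 and 73.1 FPKM, above LPS libraries 1 and 3 but with library 2 below LPS library 2. Its Log2FC was 1.27 (95% interval 0.06 to 2.47), and 1.88 without LPS library 2 (adjusted P-value = 0.0912).

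Cyp7a1 stayed low, at 0.258, 0.103 and 0.218 FPKM or an estimated 15.0, 5.05 and 12.1 reads. These values lay inside the LPS range, and the Log2FC of -0.19 (95% interval -1.04 to 0.67) turned to 0.24 without LPS library 2. Abcb11 read 20.9, 11.0 and 22.0 FPKM, between the high and the low LPS values, at a Log2FC of 0.56 (95% interval -0.62 to 1.74). Slc10a1 read 88.7, 33.2 and 92.6 FPKM, with library 2 below all LPS libraries, at a Log2FC of 0.41 (95% interval -0.71 to 1.53). In each of these transporters libraries 1 and 3 agreed closely and library 2 was the lowest.

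Cyp27a1 read 132.5, 88.9 and 128.9 FPKM (Log2FC 0.14, 95% interval -0.45 to 0.72, turning to -0.15 after rescaling to equal sums). Cyp7b1 read 274.3, 115.5 and 289.9 FPKM (0.43, interval -0.70 to 1.57). Baat read 111.2, 185.1 and 109.4 FPKM, where libraries 1 and 3 lay below all LPS libraries and library 2 inside their range (-0.46, interval -1.03 to 0.10). Slc27a5 read 183.0, 104.6 and 184.8 FPKM and overlapped LPS (0.20, interval -0.55 to 0.95, turning to -0.087 after rescaling and -0.090 without LPS library 2). Nr1h4 read 62.1, 88.4 and 60.2 FPKM, inside or just below the LPS range (-0.23, interval -1.08 to 0.63, turning to 0.086 without LPS library 2). The interval of each of the 10 members reaches past 0.5 on the log2 scale in at least 1 direction, so differences of that size stayed within what 3 libraries per group allow.

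LPS+MIC-1 against control states how far the pretreated livers stood from untreated ones. In this comparison, which shares its libraries with both others, 3 members fell and 1 rose, against background shares of 16.3% lower and 20.1% higher (36.4% in all). Cyp7a1 fell (Log2FC -5.27, SE 0.37, limma adjusted P-value = 0.000259, mean FPKM 138-fold lower), as did Abcb11 (-2.71, SE 0.52, 0.00661) and Cyp27a1 (-1.44, SE 0.26, 0.00519). Cyp7b1 rose (2.09, SE 0.50, 0.0139), from 53.9 ± 30.2 to 226.6 ± 96.5 FPKM (SD, n = 3). Its call was lost without control library 3 (0.0501) or LPS+MIC-1 library 1 (0.0522) or 3 (0.054). In the same order 2298, 2137 and 2035 of all tested genes passed, beside 3692 in the full fit. Mean levels were 0.724% of control for Cyp7a1, 15.4% for Abcb11, 36.4% for Cyp27a1 and 420.3% for Cyp7b1.

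Cyp8b1 stood at 36.3% of the control mean and did not overlap the controls, but did not pass (Log2FC -1.45, SE 0.53, limma adjusted P-value = 0.0608). It passed without LPS library 2 (0.0119), which enters through the shared spread, with only the 2 groups in the fit (0.0247) and after rescaling to equal sums (-2.10, 0.00971). Of the 10 members 1 was higher and 4 were lower than control without overlap, against background shares of 30.5% and 24.1% (54.6% in all). Nr1h4 (Log2FC -0.98, adjusted P-value = 0.0697) and Slc10a1 (-0.96, 0.151) overlapped the controls. Nr1h4 passed without control library 1 (-1.34, 0.0165) or LPS library 2 (0.04, with 45.2% of tested genes called), and both genes passed after rescaling, beside 41.2% of tested genes. Nr0b2 libraries 1 and 3 lay among the controls and library 2 just above them, with a mean at 108% of theirs (Log2FC 0.12, 95% interval -0.54 to 0.78, turning to -0.53 after rescaling). Baat (-0.04, interval -0.60 to 0.53) and Slc27a5 (0.35, SE 0.33, turning to -0.30 after rescaling) did not pass. Relative to the median of all tested genes, Nr0b2 stood at -0.03 as deposited and -0.10 after rescaling, and Slc27a5 at 0.20 and 0.13. With the closest libraries averaged Cyp7a1 was the only member that passed (0.0144), beside 1.69% of tested genes.

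In the controls, on the per-length FPKM scale, Cyp27a1 had the highest mean of the members (320.6 ± 85.3), above 97.4% of tested genes, and Cyp7a1 the lowest (26.7 ± 6.16), above 80.7%. Between them the order was Cyp8b1 (163.0 ± 62.2), Nr1h4 (144.6 ± 53.0), Slc10a1 (141.4 ± 83.5), Baat (135.1 ± 15.2), Slc27a5 (121.1 ± 25.9), Abcb11 (116.4 ± 21.9), Cyp7b1 (53.9 ± 30.2) and Nr0b2 (43.0 ± 7.10), all SD with n = 3. Neighbours from Cyp8b1 to Abcb11 differed by less than the larger of their SDs, as did Cyp7b1 and Nr0b2. With LPS, Baat (182.7 ± 28.1) and Cyp7b1 (162.2 ± 55.0) had the highest means, again within that spread of each other.

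Differences between genes within a library are free of the scaling between libraries, except through the 0.5 added to each FPKM. Cyp7b1 minus Cyp7a1 was 2.14, 0.53 and -0.01 in the controls, 8.35, 6.12 and 8.42 with LPS, then 8.50, 7.59 and 8.66 in the LPS+MIC-1 libraries, as log2(FPKM + 0.5). From near equality in control libraries 2 and 3, the alternative-pathway hydroxylase thus stood far above the classical one in every other library. Cyp8b1 minus Cyp7a1 was 2.00 to 3.55 in the controls, 4.70 to 5.29 with LPS and 5.97 to 6.68 with LPS+MIC-1, 3 ranges that did not overlap. Cyp7a1 lay below the added 0.5 in all LPS and LPS+MIC-1 libraries except LPS library 2 (0.927 FPKM). Its term there is thus set mostly by the 0.5. Neither gene alone separated LPS from LPS+MIC-1, and how many other gene pairs separate was not counted. Slc10a1 minus Abcb11 was 1.35, -0.26 and -0.65 in the controls, 2.53, 1.17 and 2.40 with LPS, then 2.06, 1.56 and 2.05 in the LPS+MIC-1 libraries. Here control library 1 exceeded LPS library 2.

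**Figure D3:**
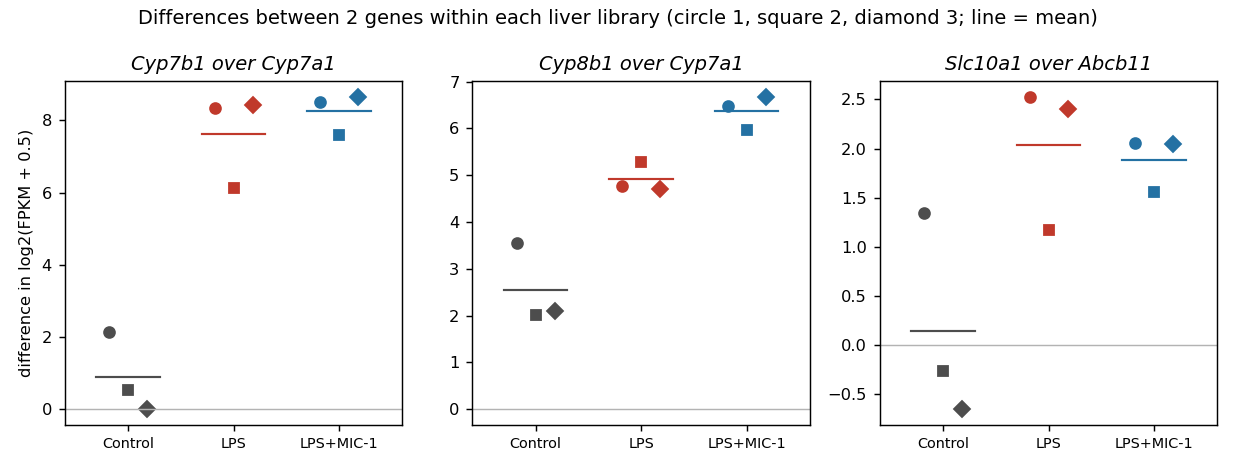
Differences in log2(FPKM + 0.5) between genes of the same liver library, by treatment. Circles, squares and diamonds are libraries 1, 2 and 3, and the line is the mean of 3 libraries. Cyp7b1 minus Cyp7a1 lay at 2.14 or below in the controls and at 6.12 or above in all other libraries.

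A list of 50 other bile acid genes showed which further steps moved. Of these, 40 passed the filter. In LPS against control 18 fell and 4 rose (median Log2FC -0.49), against the background shares of 15.5% and 19.2% of tested genes. These shares also apply to the counts by role below. In LPS+MIC-1 against LPS 0 passed, and 1 in each direction reached an unadjusted p below 0.05. Among all tested genes 1.99% did so higher and 1.6% lower. In LPS+MIC-1 against control 14 fell and 4 rose (median -0.55), against background shares of 16.3% lower and 20.1% higher. The count of 22 in LPS against control was 11 without control library 2, 12 without control library 3, 11 without LPS library 1 and 9 without LPS library 3. Among all 10147 tested genes the count of 3520 was then 1944, 1968, 1664 and 1396, in the same order. The count of 18 in LPS+MIC-1 against control was 9 without control library 2 and 11 without control library 3. Among all tested genes the count of 3692 was then 2197 and 2298.

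Among the 15 tested synthesis genes 7 fell and 3 rose with LPS. Akr1d1, the 5β-reductase of the steroid ring, read 52.2, 95.3 and 106.0 FPKM in the controls, 2.63, 11.7 and 2.46 with LPS, then 7.72, 2.78 and 6.83 in the LPS+MIC-1 libraries. All LPS and LPS+MIC-1 libraries lay far below the controls, at a Log2FC of -4.07 (SE 0.59, limma adjusted P-value = 0.00319) with LPS. Akr1c14, a 3α-hydroxysteroid dehydrogenase, fell as well (-2.84, SE 0.64, 0.0125). Ch25h, the cholesterol 25-hydroxylase, rose (3.24, SE 0.70, 0.0111), from 0, 0.434 and 0 FPKM to 7.46, 1.93 and 9.59, and read 1.55, 5.46 and 0.666 with LPS+MIC-1.

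Of 6 tested uptake genes 3 fell and none rose with LPS. Slco1b2, a bile acid and organic anion carrier, read 145.2, 193.6 and 195.6 FPKM in the controls and 10.3, 88.0 and 8.80 with LPS, with library 2 far above the others (Log2FC -3.09, SE 0.80, limma adjusted P-value = 0.0201). With LPS+MIC-1 it read 89.7, 34.5 and 87.7. Slco1a1, a related carrier, read 47.1, 50.3 and 62.8 FPKM in the controls and 12.4, 11.7 and 11.6 with LPS (-2.11, SE 0.19, 0.000496), and it also fell against control with LPS+MIC-1 (-1.96, SE 0.19, 0.000646). Slc10a5 fell from 4.04 ± 0.518 to 1.09 ± 0.231 FPKM (SD, n = 3; -1.52, SE 0.27, 0.00605).

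Of 5 tested genes of canalicular export 3 fell, among them Abcc2 (MRP2, which exports conjugates; Log2FC -1.25, SE 0.21, limma adjusted P-value = 0.00506) and Abcg5 (-1.90, SE 0.51, 0.0225). ABCG5 and ABCG8 together form the canalicular sterol transporter. Abcg8 read 0.388, 0.697 and 0 FPKM in the controls, 6.33, 0.0982 and 3.09 with LPS, then 0.0196, 0 and 0 in the LPS+MIC-1 libraries. It did not pass against control (1.60, 0.149), and in LPS+MIC-1 against LPS it stood at -2.27 (95% interval -4.11 to -0.43). Of the 2 tested genes of sinusoidal export neither passed. Ostb, the β subunit of the basolateral exporter, read 7.74, 0.520 and 1.02 FPKM in the controls, 5.71, 2.35 and 4.88 with LPS, then 1.69, 0.988 and 0.444 in the LPS+MIC-1 libraries, all 3 below the LPS libraries (-1.65, 95% interval -3.33 to 0.03). Abcc3 was listed at 15.6, 16.9 and 0 FPKM in the controls and 4.67, 7.50 and 2.78 with LPS (-0.01, adjusted P-value = 0.994).

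Among 12 tested regulators 5 fell and 1 rose with LPS. Onecut1 (HNF6), a hepatocyte transcription factor, read 54.0, 25.5 and 17.5 FPKM in the controls, 4.19, 4.67 and 1.94 with LPS, then 2.78, 4.01 and 2.41 in the LPS+MIC-1 libraries. It fell in both groups against control (-2.92, SE 0.44, limma adjusted P-value = 0.0035, and -3.07, SE 0.44, 0.00256). Nr1i3, the xenobiotic receptor CAR, fell with LPS (-2.61, SE 0.83, 0.0398), although LPS library 2 at 58.0 FPKM stood above control library 1 at 44.5. S1pr2, a receptor for conjugated bile acids, rose (2.37, SE 0.52, 0.0114), from 0.508 ± 0.0255 to 5.83 ± 3.80 FPKM (SD, n = 3). Mafg, a repressor of bile acid synthesis genes, fell against control both with LPS (-1.63, SE 0.28, 0.00517) and with LPS+MIC-1 (-1.78, SE 0.28, 0.00322), and stood at -0.15 in LPS+MIC-1 against LPS (0.997). Scp2, a sterol carrier of the peroxisome, read 600.6, 744.5 and 674.9 FPKM with LPS, then 1158, 902.5 and 1174 in the LPS+MIC-1 libraries, without overlap (0.67, 95% interval 0.16 to 1.19, limma adjusted P-value = 0.997).

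**Figure D4:**
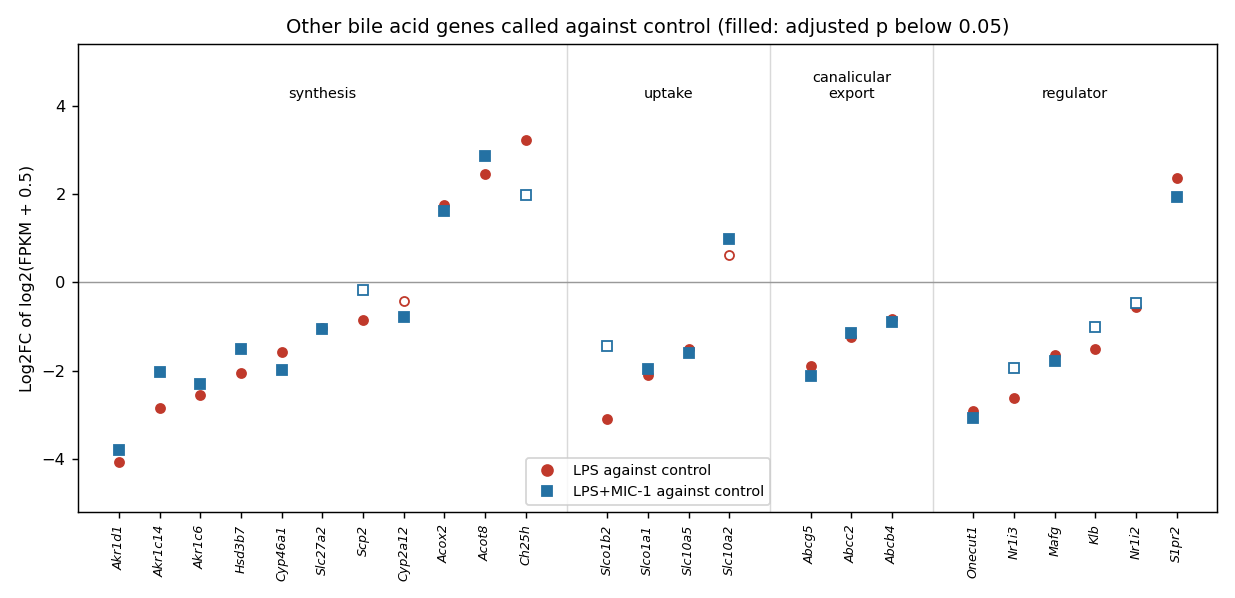
Log2FC (difference of mean log2(FPKM + 0.5)) by role of the 24 list genes that passed in at least 1 of the 2 comparisons shown, for LPS against control (circles) and LPS+MIC-1 against control (squares), 3 libraries per group with shared controls. Filled symbols passed an adjusted P-value below 0.05. Akr1d1 was lowest at -4.07 and Ch25h highest at 3.24 in LPS against control.

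By the root mean square difference of standardized log2 values over the 9 libraries, the genes closest to Cyp7a1 among 10137 compared were 2810007J24Rik (0.093), Cyp2c54 (0.095) and 9130409I23Rik (0.105). Those closest to Nr0b2 were Naa10 (0.193), Ndufs5 (0.286) and Nicn1 (0.289), and among those closest to the mean of the members were Acss2 (0.546) and Insig1 (0.549). Among the members Cyp7a1 and Abcb11 were closest to each other (0.291), and Cyp7b1 and Nr1h4 were the farthest apart (1.86). Cyp7b1 was nearest to Slc27a5 (0.682). All these likenesses are descriptions over libraries that share treatment and depth.

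In RAW264.7, a mouse macrophage cell line that the series measured in the same 3 conditions (MIC-1 at 10 µM in the study's methods, whereas the labels repeat the mouse doses), only Cyp27a1 and Nr0b2 passed the filter. No untested member exceeded 0.299 FPKM in any macrophage library. The tables were normalized separately, so levels were not compared between them. Cyp27a1 read 11.4, 13.5 and 10.6 FPKM in control cells, 5.93, 13.6 and 6.64 with LPS, then 8.34, 6.14 and 8.44 in the LPS+MIC-1 libraries. Nr0b2 read 2.42, 2.70 and 2.91 FPKM in control cells, 0.0643, 1.83 and 0.181 with LPS, then 0.223, 0.179 and 0.212 in the LPS+MIC-1 libraries. LPS library 2 stood near the controls in both genes. Nr0b2 fell with LPS+MIC-1 against control (Log2FC -2.17, SE 0.48, limma adjusted P-value = 0.0162, with 24.8% of 9905 tested genes called), a call lost without any 1 of the controls or without LPS+MIC-1 library 1 or 3 (0.0515 to 0.0652). In those fits 890 to 1442 genes passed, beside 2456 in the full fit. No gene of the table passed in LPS against control (0%), where 4928 genes (49.8%) had an unadjusted p below 0.05. Without LPS library 2 both genes passed there, Cyp27a1 at -0.85 (0.0015) and Nr0b2 at -2.35 (1.33e-05), beside 75.2% of tested genes. The study's figure legend for the macrophages lists 2 LPS libraries, fewer than the 3 given here.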

How the data were processed

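The values are those of 9 mouse liver libraries (3 per treatment) and 9 of RAW264.7 cells. The authors quantified BGI reads on RefSeq transcripts (mm9) with kallisto 0.45.0, imported gene totals through tximport, and deposited FPKM computed by DESeq2 1.20.0, which scales libraries by size factors. Their 6 tables of DESeq2 comparisons (fold changes and p-values) were not used. All columns were matched to a group by name.

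Genes of a table whose FPKM averaged above 1 entered a limma 3.58.1 fit of log2(FPKM + 0.5) (R 4.3.3; lmFit, contrasts.fit and eBayes with trend, all groups in 1 fit), Benjamini-Hochberg adjusted over all tested genes of a comparison and called below 0.05. Exact two-sided permutation tests of 3 against 3 cannot go below 0.1 and are not given. Read counts are not analysed here. The effective depth was estimated from the steps between low FPKM values, of which 81.0 to 85.0% were whole within 10% of a read. The fit of LPS against control was also run on simulated data (10147 genes, 200 of them changed, independent normal noise in each library). It called 22.1%, 65.2% and 81.8% of genes changed by 1, 2 and 3 on the log2 scale, 0 in the wrong direction and 7 of 9947 unchanged genes. The deposited libraries include close pairs, and 34.7% of tested genes were called in them, so these rates need not hold for the real fit.

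The members and lists were chosen with earlier results of these data known. All members are named, and of the other bile acid genes up to 3 per role with the largest absolute Log2FC of LPS against control, whether or not they passed, and in each other comparison the 3 of the whole list with the smallest p. Some genes that these rules pick are not reported here. Alternatives were the pseudocount, filter, scaling, libraries in the fit, trend, library weights, threshold and leaving out each library. For the liver the study describes 9 mice, 3 per group. Nothing in the values themselves shows that the libraries of a group are separate animals, and the P-values measure the spread between these libraries.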

Additional observations from a re-analysis of the deposited data

How the results depend on the processing

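No paired analysis was possible because the column names give the treatment without a replicate number. Over 19 alternatives per gene, Cyp7a1 kept its direction and its call against control with LPS (Log2FC -6.34 to -4.37) and with LPS+MIC-1 (-6.53 to -4.51). Cyp8b1 with LPS, and Cyp27a1 and Abcb11 with either treatment, each lost the call in 1 alternative, the averaging of close libraries. Cyp7b1 lost it in 6 with LPS and 4 with LPS+MIC-1. The cause of these losses was not tested. Averaging and leaving out reduce the number of libraries in the fit, whereas rescaling keeps them all.

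Counts of all genes called, in LPS against control, LPS+MIC-1 against LPS and LPS+MIC-1 against control, were 3520, 0 and 3692. They were 7410, 3063 and 7473 with library weights, where members numbered 10, 5 and 8 and the list of other bile acid genes 18 in the second comparison and 33 in the third. With close libraries averaged they were 150, 0 and 171, with 1, 0 and 1 member and 1, 0 and 2 genes of the list. At an adjusted P-value below 0.01 the first was 1178 and the third 1505, with 8 and 7 genes of the list. The second count was 1 with pseudocount 1 and without the trend and 2 without the filter, and 100 at an unadjusted p below 0.05 with an absolute Log2FC above 1, among them 1 member and 1 gene of the list. After rescaling to equal sums 7 members passed in LPS+MIC-1 against control, and the medians of all tested genes moved from -0.01 to -0.26 in LPS+MIC-1 against LPS and from 0.15 to -0.43 in LPS+MIC-1 against control. In macrophages 1 member passed in LPS+MIC-1 against LPS without the filter, beside 1920 of 16179 tested genes.

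Leaving out 1 library gave 1396 (without LPS library 3) to 4967 (without LPS library 2), 0 to 36 and 2035 (without LPS+MIC-1 library 3) to 4585 genes. Of the list it gave 9 to 26, 0 to 1 and 9 to 21 genes. In macrophages 0 to 2 members passed in LPS against control and in LPS+MIC-1 against control. Of all 9905 tested macrophage genes 0 to 7445 and 890 to 5972 then passed, with both highest counts without LPS library 2.

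Signs turned only in differences that did not pass. After rescaling, Slc27a5 was at -0.21, -0.087 and -0.30, Cyp27a1 at -0.15 in LPS+MIC-1 against LPS and Nr0b2 at -0.53 in LPS+MIC-1 against control. The medians of all tested genes were then -0.18, -0.26 and -0.43, in the same order as for Slc27a5. With library weights Cyp7a1 was at 0.30 in LPS+MIC-1 against LPS. With close libraries averaged Slc27a5 was at -0.081 with LPS and Baat at 0.13 with LPS+MIC-1, each against control. With 1 library left out, Slc27a5 ranged from -0.0064 to 0.44 in LPS against control. In LPS+MIC-1 against LPS, Slc27a5 ranged from -0.090 to 0.47, Cyp7a1 from -0.43 to 0.24 and Nr1h4 from -0.42 to 0.086, and in macrophages Cyp27a1 from -0.32 to 0.25 and Nr0b2 from -0.84 to 0.18. Baat ranged from -0.29 to 0.093 in LPS+MIC-1 against control. Depth limits Cyp7a1 most, at 4.03 to 42.7 estimated reads with LPS.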
